A study of Homo sapiens with 6 samples.

Results

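The 59 genes described here encode proteins of the DNA replication origin and fork, and their transcripts were sequenced from HL-60, a long-established line of human promyelocytic leukaemia. The line is known to lack p53 and to carry extra copies of MYC. Cells given 10 uM amiodarone for 24 h were compared with cells labelled control, with 3 libraries in each group. Amiodarone, used against cardiac arrhythmia, is a cationic and amphiphilic molecule. Neither a vehicle for the controls nor separate cultures for the 3 libraries are named in the labels. The p-values therefore rest on the spread among these libraries only, and that spread may be technical. The genes were chosen by symbol, as known parts of origin licensing, the helicase, the polymerases, the clamp and its loader, Okazaki fragment processing and chromatin assembly behind the fork. All 59 were found among the 17911 genes of the table, and all 59 were among the 11445 that passed the filter on low values, which asked for a value of 1 or more in 3 or more libraries. Values are RPKM-like, that is, they behave as reads per kilobase relative to the library and do not give RNA per cell. The unit is inferred: multiplied by GENCODE 29 exon lengths in kilobases, the values sum to 2176344 to 2236599 per library, more than RPKM on those lengths would give, so the authors' lengths or scaling differed from these and levels of different genes compare only roughly.

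Replication origins are licensed in G1, when the origin recognition complex (ORC), CDC6 and CDT1 load the ring of MCM2 to MCM7 onto DNA. At the start of S phase kinases and firing factors add CDC45 and the GINS complex to that ring, which makes the active helicase, and the polymerases, the PCNA clamp and its loader follow. Transcripts of many of these genes peak around the G1/S boundary in cycling cells, under transcription factors of the E2F family. In bulk RNA, a smaller share of cells in that phase and less RNA per cell cannot be told apart.

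After amiodarone, 53 of the 59 genes were lower, 4 were higher (ORC2, ORC3, ORC4 and DBF4) and 2 did not pass the test (ORC5 and ASF1A). A gene was called at an adjusted p under 0.05 with limma, adjusted by the Benjamini-Hochberg method over all tested genes. By that rule 78.3% of all tested genes were called, 44.8% lower and 33.5% higher, so the direction and size say more than the call. The balance over all tested genes, 5127 lower and 3832 higher, moved to 5908 and 3099 with libraries scaled to equal sums and to 4575 and 4353 with quantile normalization. The median log2 fold change of the 59 genes was -1.0, with a range of -1.88 to 0.41 and quartiles at -1.42 and -0.57. Over all tested genes the median was -0.06, with quartiles at -0.36 and 0.24. Fold changes in log2 are amiodarone minus control on log2(value + 1), which understates the change of low genes. A log2 fold change of -1 or less was found for 29 of the 59 genes (49.2%), as for 2.6% of all tested genes. On the plain scale 33 of the 59 (55.9%) had a mean after amiodarone of at most 0.5 times control, as did 4.95% of all tested genes. Mean values after amiodarone lay between 23.9% of control for TICRR and 134.5% for ORC3. The libraries of the 2 groups did not overlap in 57 of the 59 genes, and in 79.3% of all tested genes. In 53 of them every amiodarone library was below every control, as in 45.3% of all tested genes. Replicates were close: the median coefficient of variation over the 59 genes was 3.69% in amiodarone and 2.82% in control libraries, and the highest was that of GINS4 in each group, 23.0% and 11.2%.

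**Figure D1:**
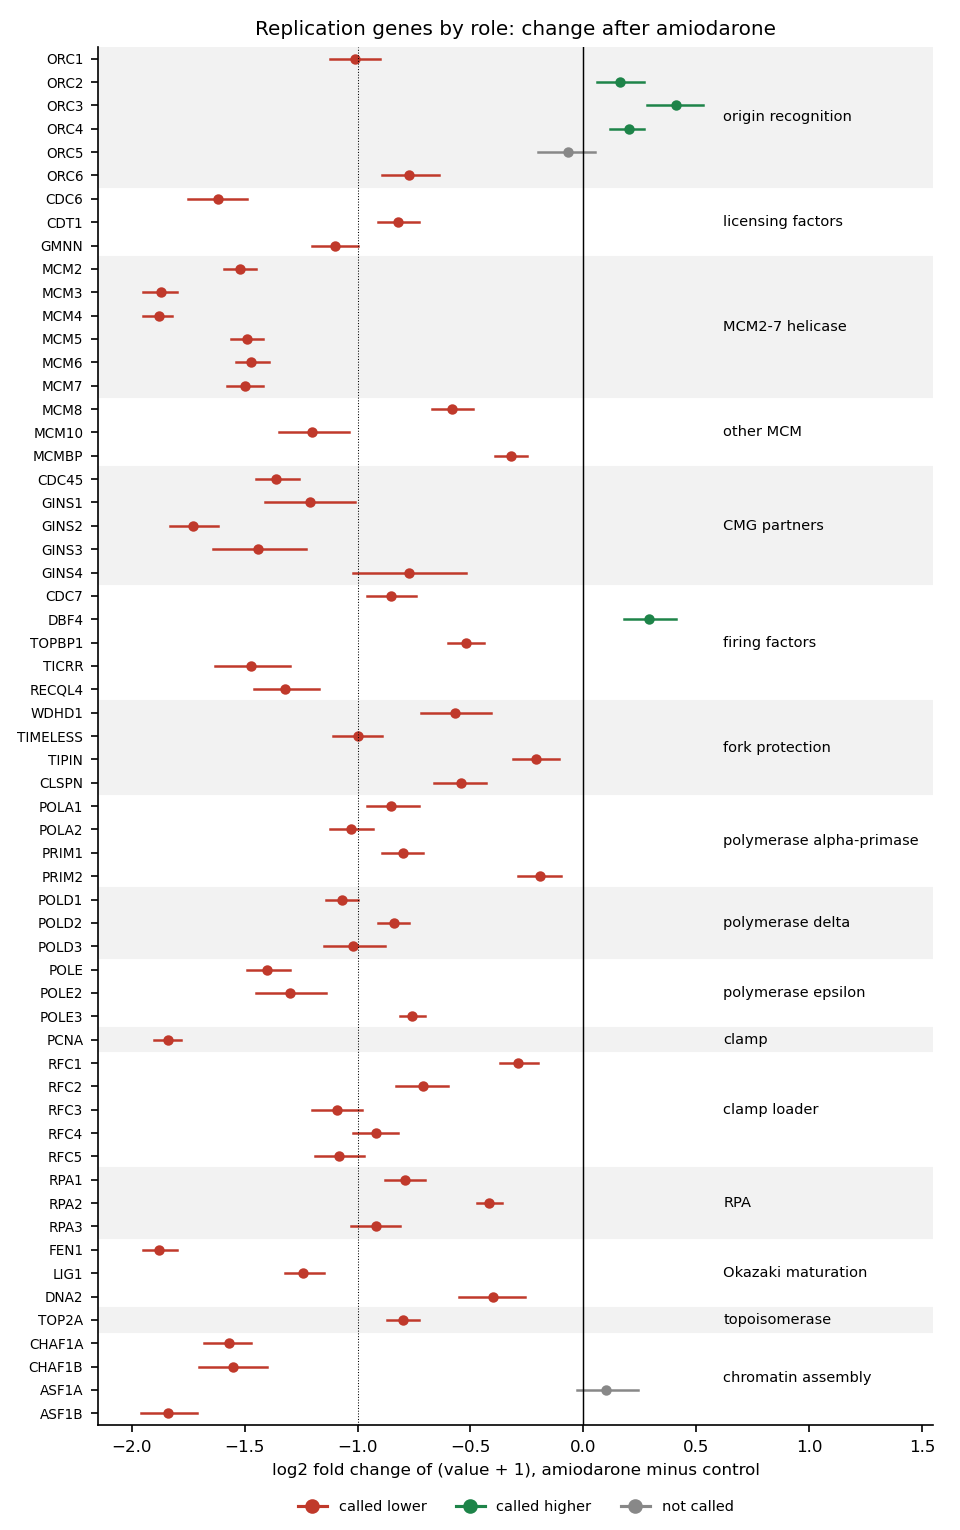
Change of each of the 59 replication genes after amiodarone, grouped by role. The x axis is the log2 fold change on log2(value + 1), amiodarone minus control, with points for the limma estimate (red called lower, green called higher, grey not called) and lines for its 95% confidence interval (3 libraries a group); the dotted line marks -1, and ORC2, ORC3, ORC4 and DBF4 lie right of 0 with intervals that exclude it.

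Low values of short genes fell near multiples of a length-dependent step, which put the depth at 16.2 to 16.7 M reads or fragments in the amiodarone and 17.5 to 18.8 M in the control libraries, as an estimate. Log2 values correlated at 0.9975 to 0.9982 within a group and at 0.959 to 0.96 between groups. Of 7 promyelocyte markers, 5 were lower after amiodarone and 1 was higher, and their summed value was 3120.2 to 3177.9 in amiodarone against 6949.3 to 7070.5 in control libraries, most of it MPO. Of 9 markers of mature myeloid cells, 8 were tested, of which 7 were higher and 1 was lower, and their sum was 694.1 to 713.4 in amiodarone against 375.1 to 378.5 in control libraries. The largest part of that sum was NCF1, with means of 369.7 in amiodarone and 132.6 in control libraries. CSF3R was the lower marker, with means of 57.6 in amiodarone and 74.4 in control libraries. The promyelocyte sum fell and the mature myeloid sum rose, but MYB and CD33 of the promyelocyte list did not fall. Their means were 124.1 and 95.5 in amiodarone and 112.2 and 91.7 in control libraries. The part of these lists in the results was not tested. The 3 T cell markers summed to 2.43 to 3.0 in amiodarone and 1.92 to 2.78 in control libraries. The 2 B cell markers in the table summed to 9.15 to 9.91 in amiodarone and 11.4 to 12 in control libraries, mostly CD79A. Of 3 erythroid, 3 epithelial and 3 fibroblast markers listed, 1, 2 and 2 were in the table, and none of these was above 0.7 in any library.

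Promoters of the genes were read for short sequence matches. RefSeq promoter windows (GRCh38.p14, 250 bases before to 50 after a start) matched 51 of the 59 genes, some with several starts. An E2F-type match was any of the words TTTCCCGC, TTTCGCGC, TTTGGCGC and TTTGCCGC on either strand, and matches may overlap. A match of the CHR type, an element known from genes of G2 and M phase, was TTTGAA on either strand. These words were chosen after the values were known, and a match is a description of the letters, not a binding site. Many of these genes are under E2F factors, as said above. A surplus of E2F-type matches over all genes can therefore come from the choice of genes alone. Whether the matches have a part in the falls was not tested. At least 1 E2F-type match was found in 24 of the 51 genes (47.1%), against 7.02% of 9354 tested genes with a window and 3.99% of all 27305 genes with one. Among the genes with a log2 fold change of -1 or less after rounding, 15 of 26 had a match (57.7%), against 9 of the other 25 (36.0%). Of the 225 tested genes with such a fall before rounding and a window, 20.9% had one. These 225 include the 26 genes just counted except TIMELESS, so the sets overlap. CHR-type matches were found in 4 of the 51 genes (7.84%) and in 13.6% of the tested genes, and CCAAT on either strand in 58.8% and 43.3%.

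The MCM2 to MCM7 genes, whose products form the ring of the replicative helicase, fell together. All 6 were lower, with log2 fold changes between -1.88 and -1.47, and their summed value was 171.5 ± 3.22 in amiodarone and 526.0 ± 2.46 in control libraries (SD, n = 3 each), that is, 32.6% of control. MCM4 had 15.79, 15.83 and 15.48 in the amiodarone libraries, against 61.62, 60.56 and 59.85 in the controls. MCM3 had 17.44, 18.50 and 19.02 after amiodarone, against 69.55, 69.22 and 70.66 in control. These were the deepest falls of the ring, to 25.9% and 26.2% of control (log2 fold changes of -1.88, SE 0.031, and -1.87, SE 0.036; adjusted p = 3.47e-12 and 1.18e-11). On log2(value + 1), which understates the change of low genes, 6 and 8 of the 11445 tested genes had a more negative log2 fold change. The other ring genes stayed at nearly the same fraction of control. MCM2 averaged 31.9 ± 0.71 in amiodarone and 93.5 ± 2.78 in control libraries, 34.1% of control. MCM5 averaged 36.7 ± 1.14 in amiodarone and 104.9 ± 1.18 in control libraries, and MCM7 52.3 ± 2.56 in amiodarone and 149.7 ± 0.925 in control libraries, each 35.0% of control. MCM6 had 16.17, 16.44 and 16.80 in amiodarone against 48.63, 46.91 and 46.51 in control libraries, or 34.8%. Every amiodarone library was below every control in each of these 6 genes, as in 45.3% of all tested genes.

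The makeup of the ring's transcripts shifted slightly with the deeper falls. MCM3 made up 10.7% ± 0.278 of the summed value of the 6 genes in amiodarone and 13.3% ± 0.0823 in control libraries, and MCM4 9.16% ± 0.249 in amiodarone and 11.5% ± 0.213 in control libraries (SD, n = 3 each). The share of MCM7 was 30.5% ± 0.975 in amiodarone and 28.5% ± 0.21 in control libraries. MCM7, MCM5, MCM2 and MCM3 kept the order from highest to lowest in both groups, and MCM6 and MCM4 changed places at the low end. Exons of MCM2 lie opposite the annotated antisense gene AC023593.1 over 22.7% of their bases, and reads of the pair cannot be told apart if counting did not use strand.

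Promoter windows of MCM2, MCM3, MCM6 and MCM7 were at hand, and each had at least 1 window with 2 or more E2F-type matches. The windows of MCM6 (chr2:135876394-135876693, minus strand) and MCM3 (chr6:52284693-52284992, minus strand) are shown 5′ to 3′, with the E2F-type words in capitals. They are the 2 extremes, by log2 fold change on log2(value + 1), of the ring's falls with a window.
MCM6: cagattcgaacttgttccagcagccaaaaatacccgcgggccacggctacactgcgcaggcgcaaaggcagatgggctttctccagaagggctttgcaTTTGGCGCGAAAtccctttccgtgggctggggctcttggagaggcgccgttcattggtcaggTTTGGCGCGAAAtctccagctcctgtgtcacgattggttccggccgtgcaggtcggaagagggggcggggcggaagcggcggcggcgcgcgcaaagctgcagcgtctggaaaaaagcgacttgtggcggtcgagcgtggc
MCM3: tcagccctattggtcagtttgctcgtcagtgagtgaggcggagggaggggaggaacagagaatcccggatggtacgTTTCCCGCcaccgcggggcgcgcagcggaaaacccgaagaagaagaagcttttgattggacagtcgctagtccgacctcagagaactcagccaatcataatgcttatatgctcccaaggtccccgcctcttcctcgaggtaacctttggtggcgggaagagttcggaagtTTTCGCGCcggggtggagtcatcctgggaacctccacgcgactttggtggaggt
In MCM6 each stretch of capitals holds 2 overlapping words on opposite strands, which begin 152, 148, 90 and 86 bases before the start. In MCM3 the words begin 174 and 4 bases before it. The gene bodies span chromosome 2, 135839626 to 135876426 (MCM6), and chromosome 6, 52264009 to 52284881 (MCM3), and both are read from the minus strand (GENCODE 29, GRCh38).

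The other genes with MCM names fell less evenly. MCM10, which helps to turn the loaded ring into an active helicase, had 1.0, 1.22 and 0.98 in amiodarone against 3.78, 3.88 and 3.56 in control libraries. That is 28.5% of control, although its log2 fold change of -1.20 understates this at such low values. MCM8, the partner of MCM9 in recombination repair, averaged 11.4 ± 0.42 in amiodarone and 17.5 ± 0.385 in control libraries. MCMBP, which binds MCM subunits off the chromatin, averaged 33.2 ± 0.91 in amiodarone and 41.8 ± 0.231 in control libraries, 79.5% of control. The ratio of MCM10 to MCMBP was 0.031, 0.0358 and 0.0294 in amiodarone and 0.0907, 0.0932 and 0.0847 in control libraries.

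CDC45 and the GINS genes, whose products complete the helicase around the ring, fell to a similar extent, with a summed value at 34.8% of control. CDC45 had 9.25, 9.53 and 8.66 in amiodarone against 24.46, 25.35 and 25.19 in control libraries. GINS2 had 4.37, 4.44 and 4.79 against 16.79, 17.46 and 17.64, the deepest fall of the GINS genes (log2 fold change -1.73, SE 0.048; limma, adjusted p = 1.64e-10). Both genes were lower in each amiodarone library than in any control, as were 45.3% of all tested genes. GINS1 averaged 5.11 ± 0.918 in amiodarone and 13.0 ± 0.276 in control libraries, and GINS3 2.44 ± 0.435 in amiodarone and 8.27 ± 0.792 in control libraries (SD, n = 3 each). GINS4 had 2.97, 2.01 and 3.19 against 4.87, 5.98 and 5.06. GINS4 faces an annotated antisense gene over 21.2% of its exonic bases and had the widest interval of all 59 genes' estimates (log2 fold change -0.77, 95% confidence interval -1.02 to -0.52).

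**Figure D2:**
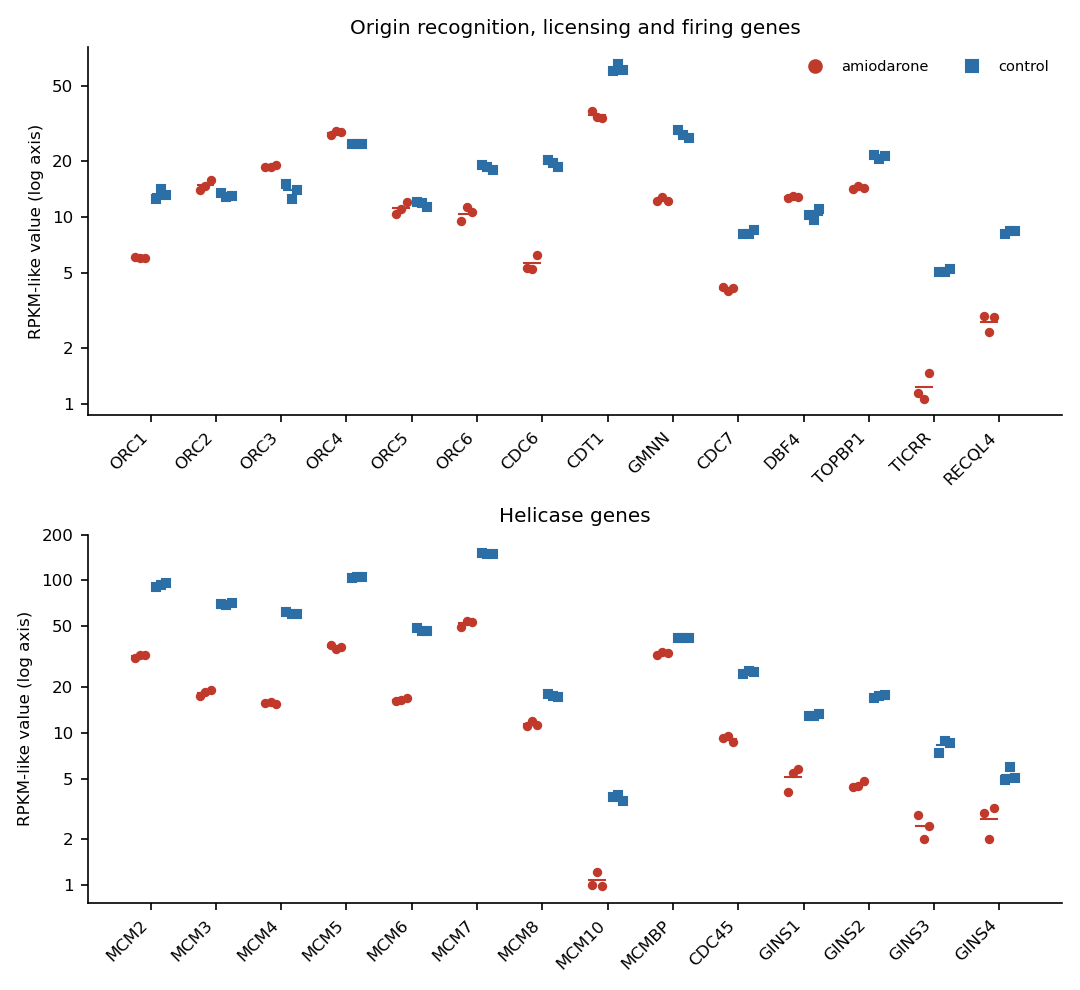
RPKM-like values (log axis) of origin and firing genes (top) and helicase genes (bottom) in each of the 3 amiodarone libraries (circles) and 3 control libraries (squares), with lines for group means. The MCM2 to MCM7 genes lie at 15.5 to 54.3 in amiodarone and 46.5 to 150.6 in control libraries, while the ORC2, ORC3, ORC4 and DBF4 points lie above control.

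The origin recognition complex was split. ORC1, whose product is degraded after licensing in human cells, and ORC6, the most loosely bound subunit, were lower, while genes of the core subunits ORC2, ORC3 and ORC4 were higher and ORC5 was not called. The summed value of the 6 genes was 85.93, 90.33 and 91.97 in amiodarone and 96.92, 94.35 and 93.65 in control libraries, or 94.1% of control. ORC1 had 6.13, 6.05 and 6.01 against 12.56, 14.12 and 13.08 (log2 fold change -1.01, SE 0.05; limma, adjusted p = 1.37e-08). ORC6 had 9.49, 11.25 and 10.60 against 19.08, 18.41 and 17.79. ORC1 and ORC6 thus stood at 45.7% and 56.7% of control, with no overlap between the groups, as in 79.3% of all tested genes.

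ORC3 had 18.54, 18.54 and 18.89 in amiodarone against 15.11, 12.54 and 13.96 in control libraries (log2 fold change 0.41, 95% confidence interval 0.28 to 0.53; limma, adjusted p = 5.61e-05). ORC4 had 27.46, 28.78 and 28.59 against 24.61, 24.49 and 24.56, and ORC2 13.97, 14.68 and 15.78 against 13.53, 12.88 and 12.90. All 3 genes were higher in every amiodarone library than in any control, with means at 113.0% to 134.5% of control. Such rises were common: 79.3% of all tested genes did not overlap between the groups, and 33.5% were called higher. A more negative log2 fold change was found for 69.5% of all tested genes beside ORC2 and 84.4% beside ORC3. None of the 3 genes was called against a 1.5-fold change. The rise of ORC2 was the smallest (log2 fold change 0.16; limma, adjusted p = 0.0097), and its call ended when libraries were scaled to equal sums (log2 fold change 0.079, adjusted p = 0.177). ORC5 had 10.34, 11.03 and 12.10 against 12.03, 11.91 and 11.36, with overlapping groups and a 95% confidence interval of -0.20 to 0.05. With libraries scaled to equal sums (log2 fold change -0.157, adjusted p = 0.0256), or without amiodarone replicate 3 (-0.128, adjusted p = 0.0424), ORC5 was called lower.

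The promoter window of ORC3, the origin gene with the largest rise, also holds 1 E2F-type word, 12 bases before the start (chr6:87589885-87590184, plus strand; capitals as above).
ORC3: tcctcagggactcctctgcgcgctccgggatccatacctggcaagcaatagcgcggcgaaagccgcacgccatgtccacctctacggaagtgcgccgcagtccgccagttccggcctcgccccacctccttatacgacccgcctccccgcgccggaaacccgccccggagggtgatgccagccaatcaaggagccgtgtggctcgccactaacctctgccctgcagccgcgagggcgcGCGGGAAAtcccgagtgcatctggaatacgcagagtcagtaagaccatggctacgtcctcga
This is the match on the opposite strand of TTTCCCGC. Of the 4 genes called higher, ORC3 was the 1 with such a match, and none was found in the windows of ORC1, ORC2, ORC4, ORC5 and ORC6.

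All 3 licensing factors fell. CDC6, the ATPase that joins ORC to load the ring, had 5.37, 5.30 and 6.29 in amiodarone against 20.17, 19.45 and 18.60 in control libraries, 29.1% of control (log2 fold change -1.62, SE 0.061; limma, adjusted p = 1.62e-09). CDT1, the chaperone of the ring during loading, had 36.78, 34.48 and 33.78 against 60.19, 66.07 and 61.43. GMNN, which encodes geminin, the inhibitor of CDT1, had 12.19, 12.81 and 12.19 against 29.31, 27.32 and 26.60. CDT1 stood at 56.0% of control and GMNN at 44.7%. The ratio of CDT1 to GMNN transcripts was 3.02, 2.69 and 2.77 in amiodarone against 2.05, 2.42 and 2.31 in control libraries.

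Firing factors went both ways, 4 lower and 1 higher, and a kinase and an activating subunit moved apart. CDC7, the kinase that phosphorylates the loaded ring, had 4.22, 4.01 and 4.16 in amiodarone against 8.07, 8.15 and 8.57 in control libraries. DBF4, a subunit that activates CDC7, had 12.61, 12.99 and 12.85 against 10.25, 9.61 and 10.99 (log2 fold change 0.29, 95% confidence interval 0.18 to 0.41; limma, adjusted p = 2.57e-04). CDC7 thus averaged 4.13 in amiodarone and 8.26 in control libraries, while DBF4 stood at 124.6% of control. Neither gene overlapped between the groups, as in 79.3% of all tested genes. DBF4B, a gene outside the 59 with a related name, was lower, at 12.6 in amiodarone and 17.6 in control libraries, 71.5% of control. TICRR, also known as treslin, which brings CDC45 to the ring, had 1.14, 1.07 and 1.47 against 5.06, 5.08 and 5.28, the lowest fraction of control of all 59 genes at 23.9%. RECQL4, a helicase of the RecQ family needed for initiation, averaged 2.76 ± 0.289 in amiodarone and 8.35 ± 0.165 in control libraries. TOPBP1, a scaffold for initiation and for ATR signalling, averaged 14.4 ± 0.304 in amiodarone and 21.0 ± 0.526 in control libraries, 68.3% of control.

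Genes of fork protection fell less, with a median log2 fold change of -0.55. TIMELESS, which travels with the fork, had 5.02, 5.45 and 4.97 in amiodarone against 11.35, 11.35 and 11.14 in control libraries. Its partner TIPIN had 6.96, 7.21 and 7.01 against 8.50, 8.21 and 8.23. TIMELESS was at 45.6% of control and TIPIN at 84.9%, although 21.0% of TIPIN's exonic bases are shared with a ribosomal protein pseudogene on the same strand. CLSPN, the CHK1 adaptor claspin, averaged 4.46 ± 0.052 in amiodarone and 6.96 ± 0.368 in control libraries. WDHD1, which links the helicase to polymerase alpha, averaged 3.92 ± 0.429 in amiodarone and 6.27 ± 0.296 in control libraries.

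All 10 listed polymerase genes were lower, from 34.4% of control for POLE to 86.1% for PRIM2. In the polymerase alpha and primase complex, which lays the primers, the catalytic subunit gene POLA1 averaged 3.95 ± 0.111 in amiodarone and 7.92 ± 0.297 in control libraries. POLA2 averaged 8.63 ± 0.366 in amiodarone and 18.6 ± 0.599 in control libraries. PRIM1, the catalytic primase subunit, averaged 25.2 ± 1.08 in amiodarone and 44.7 ± 1.8 in control libraries. PRIM2, the large primase subunit, had 8.68, 8.88 and 8.76 in amiodarone against 9.88, 10.09 and 10.60 in control libraries (log2 fold change -0.19, SE 0.045; limma, adjusted p = 0.00202). PRIM1 and PRIM2 thus differed in their fraction of control, 56.4% and 86.1%. POLA2 shares 35.1% of its exonic bases with an annotated gene on the same strand, so its reads are uncertain.

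In polymerase delta, which extends the lagging strand, the catalytic subunit gene POLD1 had 19.99, 19.81 and 19.74 in amiodarone against 42.25, 43.42 and 42.71 in control libraries. The accessory subunit gene POLD2 averaged 79.8 ± 3.32 in amiodarone and 143.4 ± 1.5 in control libraries, and POLD3 5.50 ± 0.554 in amiodarone and 12.1 ± 0.0702 in control libraries. In polymerase epsilon, which extends the leading strand, the catalytic subunit gene POLE had 5.98, 5.89 and 5.84 against 16.88, 17.05 and 17.58, and POLE2 had 3.78, 4.61 and 4.72 against 11.68, 12.01 and 12.77. POLE3, a histone-fold subunit that also serves in a chromatin remodeller, averaged 47.6 ± 0.566 in amiodarone and 81.1 ± 0.502 in control libraries. POLE and POLE2 were at 34.4% and 36.0% of control, POLE3 at 58.7%, and the 3 polymerase delta genes between 45.4% and 55.6%.

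The clamp fell more than its loader. PCNA, the sliding clamp that holds the polymerases on DNA and had the highest control value of the 59 genes, had 55.56, 55.14 and 55.32 in amiodarone against 204.57, 204.20 and 193.70 in control libraries. This is 27.6% of control (log2 fold change -1.84, SE 0.028; limma, adjusted p = 2.51e-12), with no overlap between the groups, as in 79.3% of all tested genes. The loader genes RFC1 to RFC5 were all lower, with their summed value at 56.0% of control. Of the small subunits, RFC3, RFC4 and RFC5 stood at 44.5%, 51.5% and 44.4% of control, and RFC2 at 60.2%. RFC1, the large subunit, had 13.20, 13.28 and 13.64 against 16.63, 16.35 and 16.62, or 80.9%. PCNA has 3 annotated pseudogenes by name, and DBF4, POLD2, RFC3, RFC5, RPA2 and FEN1 have 1 to 3 each, with which reads may be shared.

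Of the 2 promoter windows of PCNA, the gene with the highest control value, the upstream one is shown (chr20:5126573-5126872, minus strand; capitals as above). Its E2F-type word, TTTCCCGC on the opposite strand, begins 59 bases before the start.
PCNA: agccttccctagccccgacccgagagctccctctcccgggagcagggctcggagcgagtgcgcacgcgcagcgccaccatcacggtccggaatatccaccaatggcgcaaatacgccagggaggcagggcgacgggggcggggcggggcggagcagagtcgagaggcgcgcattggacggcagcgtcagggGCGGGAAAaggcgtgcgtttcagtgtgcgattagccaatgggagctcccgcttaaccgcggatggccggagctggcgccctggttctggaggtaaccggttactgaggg
The window also holds 3 CCAAT matches on either strand, which are not in capitals.

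Genes of replication protein A, which coats single-stranded DNA, fell unequally. RPA1 had 8.54, 8.49 and 8.91 in amiodarone against 15.73, 15.54 and 15.65 in control libraries, and RPA3 averaged 5.80 ± 0.185 in amiodarone and 11.8 ± 0.54 in control libraries. RPA2 had 68.76, 69.33 and 68.94 against 92.84, 93.35 and 91.58. RPA2 had the highest value of the 3 in both groups and kept the largest part of its level, 74.5% of control against 55.3% for RPA1 and 49.0% for RPA3.

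In Okazaki fragment maturation, FEN1, the nuclease that trims flaps, had 9.87, 9.54 and 9.65 in amiodarone against 38.65, 38.28 and 37.79 in control libraries. LIG1, the ligase that seals the nicks, had 9.53, 9.73 and 9.90 against 23.92, 24.65 and 24.13. The flap nuclease and helicase gene DNA2 had 3.19, 3.24 and 3.34 against 4.55, 4.24 and 5.12. FEN1 thus fell to 25.3% of control (log2 fold change -1.88; limma, adjusted p = 8.76e-12), LIG1 to 40.1% and DNA2 to 70.2%. TOP2A, which untangles sister DNA and whose transcript is known to peak in G2 and M phase, had 25.63, 26.00 and 26.46 in amiodarone against 46.81, 45.20 and 46.14 in control libraries, 56.5% of control. Its promoter window held 2 CHR-type matches and no E2F-type match, and that of FEN1 neither.

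Among histone chaperones that assemble chromatin behind the fork, 3 of 4 fell and the paralogs of ASF1 moved apart. CHAF1A and CHAF1B encode subunits of chromatin assembly factor 1, which PCNA recruits. CHAF1A averaged 7.65 ± 0.455 in amiodarone and 24.7 ± 0.702 in control libraries, and CHAF1B had 3.34, 3.12 and 3.90 against 12.39, 11.58 and 12.06. ASF1B had 8.23, 9.68 and 9.87 in amiodarone against 35.07, 36.60 and 34.93 in control libraries (log2 fold change -1.84, SE 0.058; limma, adjusted p = 4.47e-10). ASF1A had 17.01, 16.48 and 19.95 against 16.78, 16.75 and 15.80, with overlapping groups (log2 fold change 0.10, 95% confidence interval -0.03 to 0.24; limma, adjusted p = 0.146). ASF1A was called higher without amiodarone replicate 2 (log2 fold change 0.156, adjusted p = 0.0479) and with quantile normalization (0.19, adjusted p = 0.0181). The value of ASF1B was 0.484, 0.587 and 0.495 times that of ASF1A in amiodarone and 2.09, 2.19 and 2.21 times in control libraries. Levels of different genes compare only roughly here, so the shift in ratio does not show which paralog was more abundant.

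The promoter windows of this pair, whose products are closely related histone H3 and H4 chaperones, are shown for comparison (ASF1B, chr19:14136540-14136839, minus strand; ASF1A, chr6:118893902-118894201, plus strand). Neither holds an E2F-type word as spelled above.
ASF1B: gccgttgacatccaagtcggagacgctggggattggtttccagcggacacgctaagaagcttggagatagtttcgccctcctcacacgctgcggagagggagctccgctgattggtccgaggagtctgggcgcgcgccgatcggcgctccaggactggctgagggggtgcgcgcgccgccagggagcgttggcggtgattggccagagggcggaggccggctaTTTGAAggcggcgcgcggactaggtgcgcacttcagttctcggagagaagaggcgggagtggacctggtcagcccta
ASF1A: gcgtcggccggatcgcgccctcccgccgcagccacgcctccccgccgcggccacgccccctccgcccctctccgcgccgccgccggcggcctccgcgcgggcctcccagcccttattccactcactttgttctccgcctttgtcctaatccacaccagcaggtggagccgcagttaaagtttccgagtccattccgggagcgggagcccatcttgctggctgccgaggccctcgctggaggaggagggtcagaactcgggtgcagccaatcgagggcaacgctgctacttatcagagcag
The capitals in ASF1B mark the CHR-type word TTTGAA, which begins 27 bases before the start, and ASF1A has none. ASF1B has 3 CCAAT matches and ASF1A 1. The gene body of ASF1B spans chromosome 19, 14119509 to 14136956, and that of ASF1A chromosome 6, 118894220 to 118909167 (GENCODE 29, GRCh38). The ASF1B window thus lies inside its gene body and does not reach the annotated 5′ end. The ASF1A window ends before its gene body starts, so the windows are not placed alike.

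**Figure D3:**
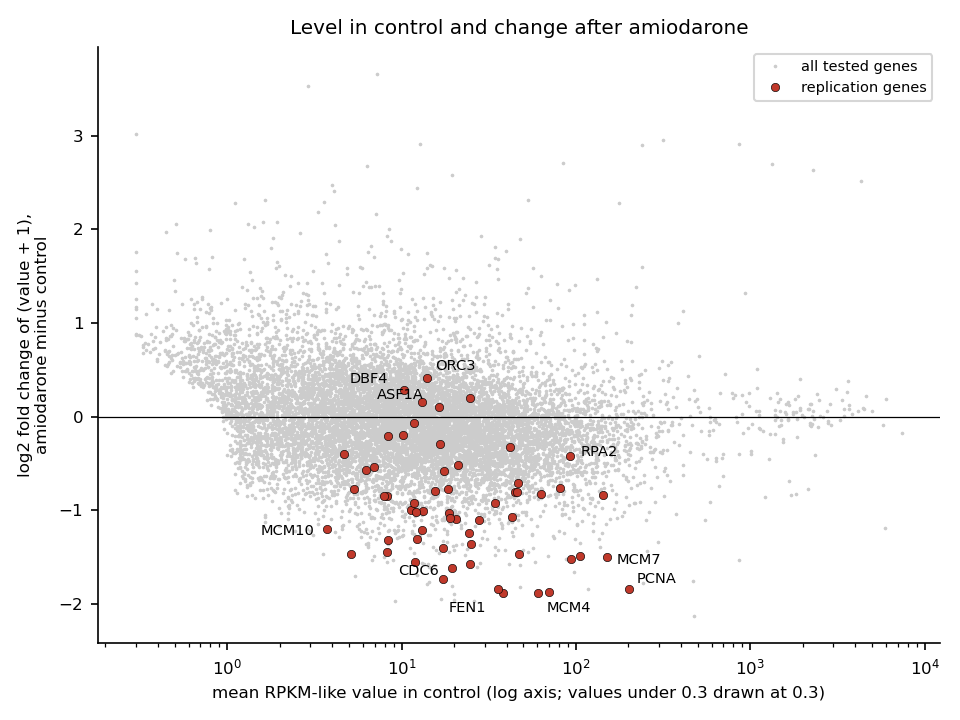
Mean RPKM-like value in the 3 control libraries (x, log axis) and log2 fold change on log2(value + 1), amiodarone minus control (y), for the 11445 tested genes (grey) and the 59 replication genes (red, 10 of them named). The replication genes, with control means from 3.74 for MCM10 to 200.8 for PCNA, lie mostly near the lower edge of the grey points, and ORC3, DBF4 and ASF1A lie above 0.

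For 10 pairs of subunits or paralogs the ratio of their transcripts was compared between the groups. With 3 against 3 libraries the two-sided exact permutation test cannot give a p under 0.1, so no pair can pass a threshold of 0.05. On log2(value + 1) each of the 10 pairs reached that smallest p (Benjamini-Hochberg adjusted over the 10 pairs, also 0.1). The pairs were chosen with earlier results of these data known, and 79.3% of all tested genes did not overlap between the groups, so this count is a description only. The difference in log2 ratio, amiodarone minus control, was -1.94 for ASF1B over ASF1A, -1.42 for ORC1 over ORC3, -0.93 for ORC6 over ORC2 and -0.88 for MCM10 over MCMBP. The pseudocount shrinks such differences where a gene is low: at 0.1 in place of 1 they were -0.99 for ORC6 over ORC2 and -1.39 for MCM10 over MCMBP, so the order of these pairs depends on it. It was -0.80 for RFC3 over RFC1, -0.54 for POLE2 over POLE3 and -0.23 for POLD1 over POLD2. It was positive for CDT1 over GMNN, at 0.28, and for RPA2 over RPA1, at 0.37. The ratio of RPA2 to RPA1 was 8.05, 8.17 and 7.74 in amiodarone against 5.9, 6.01 and 5.85 in control libraries. The plain ratios of GINS2 to GINS3 overlapped, at 1.52, 2.22 and 1.96 against 2.28, 1.97 and 2.05, so their separation on log2(value + 1), with a difference of -0.29, came from the pseudocount. With a pseudocount of 0.1 that pair had a difference of -0.18 and an exact permutation p of 0.4.

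**Figure D4:**
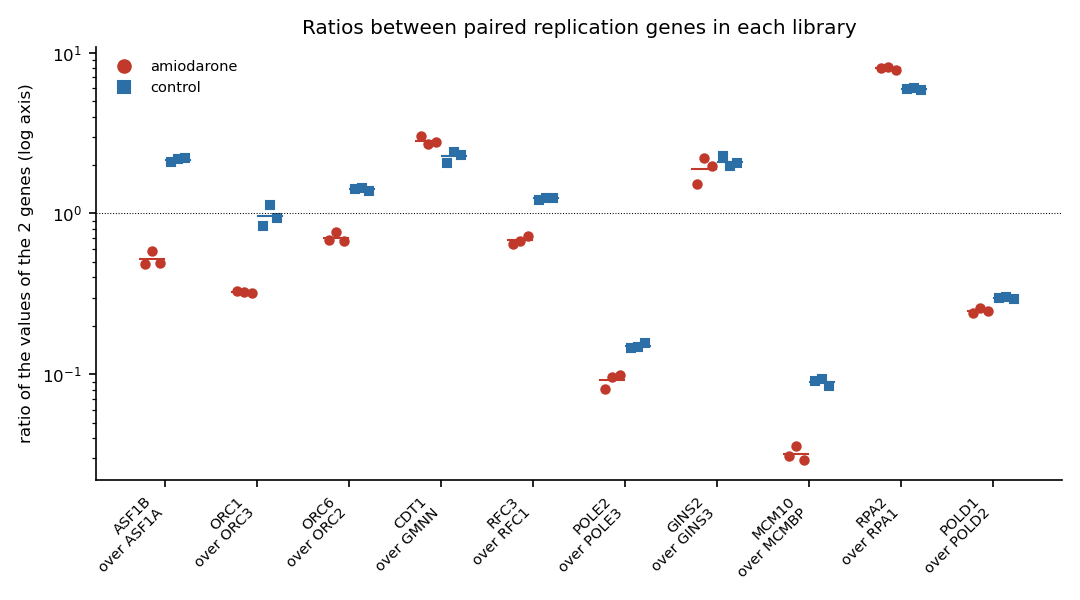
Ratio of the RPKM-like values of 2 paired replication genes (log axis) in each of the 3 amiodarone libraries (circles) and 3 control libraries (squares), with lines for group means. The largest shift is ASF1B over ASF1A, at 0.522 in amiodarone and 2.16 in control libraries on average, and the groups overlap for GINS2 over GINS3.

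A further 35 replication genes outside the 59 were listed by role, among them alternative clamp loader subunits, ribonuclease H2, histone chaperones and regulators of licensing. Amiodarone libraries were lower in 28 of these (80.0%) and higher in 2, and 5 were not called. Over all tested genes 44.8% were lower and 33.5% higher. Their median log2 fold change was -0.33, and 5 genes (14.3%) were at -1 or less, as were 2.6% of all tested genes. DTL, which directs CDT1 to degradation, had the deepest fall, with 3.81, 4.12 and 4.12 in amiodarone against 14.85, 14.03 and 13.93 in control libraries. EXO1, a repair and flap nuclease, had 1.68, 2.04 and 1.75 against 5.86, 6.20 and 5.51. DTL was at 28.1% of control and EXO1 at 31.1%, beside 27.6% for PCNA. SUPT16H, a subunit of the histone chaperone FACT, was at 45.8% of control, and CHTF8, of an alternative clamp loader, at 45.4%. The 2 genes called higher were POLD4, the small subunit of polymerase delta (14.27, 14.28 and 14.04 against 12.50, 12.74 and 11.99), and the fork remodeller ZRANB3 (1.36, 1.43 and 1.69 against 1.22, 0.91 and 1.19). POLD4 thus stood at 114.4% of control beside 45.4% to 55.6% for the 3 other polymerase delta genes, but 21.3% of its exonic bases are shared with an annotated gene on the same strand. The call of ZRANB3 ended without amiodarone replicate 3 (adjusted p = 0.0937) and without control replicate 2 (adjusted p = 0.1), with libraries scaled to equal sums (adjusted p = 0.0601) and with quantile normalization (adjusted p = 0.109). POLE4, LRWD1, ETAA1, LIG3 and SMARCAL1 were not called.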

How the data were processed

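The labels give 3 amiodarone and 3 control libraries of HL-60 cells, for which the labels' protocols name a strand-specific mRNA kit. Tools listed, with no role, in the submitters' processing notes are featureCounts, STAR 2.5.3a and fastp 0.23.4, beside the build GRCh38.p12. The sources used here do not give the strand setting of the counting or its annotation. The authors deposited values that have no stated unit per the file headers and behave like RPKM: they are not whole numbers, their sums differ between libraries (534485.6 to 574483.1), and low values follow a length-dependent step. Against this, value times GENCODE 29 exon length in kilobases sums to 2176344 to 2236599 per library, more than RPKM on those lengths would give, so the authors' gene lengths or scaling differed from these, which also limits the depth estimate. That step gave the depth estimate, with 54.7% to 65.1% of 74 to 94 low values within 0.15 of a whole step; the step was chosen to raise this share. Whole reads were not recovered, so no count test was run. No pair of libraries had over 3.29% identical values.

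Of 17911 genes, the 11445 that reached a value of 1 in 3 or more libraries were tested with limma 3.58.1 (R 4.3.3; lmFit and trended eBayes) on log2(value + 1). No covariate and no rescaling was used; the residual degrees of freedom were 4 and those of the prior 6.59. P-values were adjusted by the Benjamini-Hochberg method. The procedure was also run on simulated data with independent normal errors, the fitted variances and few changed genes. In the real data 78.3% of tested genes were called, so that run does not check these calls. Pair ratios were compared with an exact permutation test. Coordinates and exon overlaps came from GENCODE 29 by Ensembl ID; overlaps of over 15% are named. Members, lists, motif words and pairs were chosen with earlier results of these data known. Every member may be named. Of the further replication genes the 4 most negative and up to 4 most positive called ones are named, beside DBF4B, and those not called by symbol. 15 alternatives were fitted for the gene lists: another pseudocount, 2 filters, 3 scalings, another variance model, a test against a 1.5-fold change, a replicate block and each library left out.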

Additional observations from a re-analysis of the deposited data

How the results depend on the processing

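Of 882 values of the 59 replication genes under 15 alternatives, none changed sign, 861 kept their side of the threshold, 17 lost the call and 4 gained it; 41 genes kept theirs throughout. The count of the 59 genes called lower was 53 or 54 under the alternatives that tested all 59, except 41 with a test against a 1.5-fold change, and 50 of 56 at a minimum value of 5. Against a 1.5-fold change 0 of the 59 were called higher with limma, where 4 were at an adjusted p under 0.05. Of the further replication genes that test called 8 lower and 0 higher, and of all tested genes 776 lower and 576 higher, so many of the smaller changes named above do not exceed that size. 1 further gene was called higher at a minimum value of 5 and with scaling to equal sums. The median log2 fold change of the 59 genes was -1.10 at a pseudocount of 0.1, -0.96 scaled by the median of ratios, -1.08 scaled to equal sums and -0.95 with quantile normalization, and that of the further genes -0.30, -0.42 and -0.28 under the 3 scalings. Leaving out each library gave -1.01 to -0.94 for the 59 genes, and -0.36 to -0.33 with 1 to 3 genes called higher for the further ones. The cause of these differences was not tested. The origin recognition median log2 fold change of 0.045 turned to -0.039 with scaling to equal sums, and ranged from -0.004 (without amiodarone replicate 3) to 0.089 with each library left out. The POLE4 log2 fold change, not called, turned to 0.026 scaled by the median of ratios and 0.112 with quantile normalization, and ranged from -0.059 to 0.053 with each library left out. The LRWD1 log2 fold change, not called, turned to 0.001 with quantile normalization.

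The replicate numbers are not said to pair the libraries, and deviations of same-numbered libraries correlated at -0.155, -0.0182 and -0.0231. With the replicate block 53 of the 59 genes were lower, 4 higher and the median was -1.0, and over all genes 5022 were lower and 3748 higher. Depth is an estimate, so counting error per gene was not computed. Of the 59 genes GINS4 had the largest SE of its log2 fold change, 0.115.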
